A study of Mus musculus with 12 samples.

Results

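Mammary tumors of mice fed the RXR agonist bexarotene were compared with tumors of mice fed control diet, over the 1784 genes that the authors listed for this comparison. All listed genes were kept, out of 2876 genes listed in the series for either RXR agonist. The authors listed a gene when its unadjusted p-value was under 0.05, so every gene described here had been selected for differing between these same tumors. This limit holds no correction for multiple testing, so part of the list is expected by chance. The paper itself, which corrected for multiple testing, reports far fewer genes regulated by bexarotene, so its count and this list rest on unlike limits. The differences are therefore given as a description, with no test.

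The tumors came from female MMTV-Neu mice, in which the Neu (HER2) oncogene is driven by the mouse mammary tumor virus promoter, active mainly in mammary epithelium, so that HER2+ mammary tumors form. Mice carrying a mammary tumor were given control diet or bexarotene at 100 mg/kg diet for 10 days, with 4 tumors per group, and a further group of 4 received the RXR agonist V-125 at the same dose and time. All 12 tumors carried the same transgene, and frozen tumor tissue was sequenced after enrichment of polyadenylated RNA.

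The retinoid X receptors (RXRs) are nuclear receptors that pair with other nuclear receptors, among them the retinoic acid receptors, the liver X receptors (LXRs), the peroxisome proliferator-activated receptors (PPARs), the vitamin D receptor and thyroid hormone receptors. LXR and PPAR pairs can be switched on by an RXR agonist alone. LXRs induce genes of fatty acid synthesis and cholesterol export, PPARs induce genes of fatty acid handling, and sterol regulatory element-binding proteins (SREBPs) induce the genes of sterol synthesis and uptake. Bexarotene is an approved retinoid drug known for raising blood lipids.

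Values are normalized counts, meaning reads of a gene divided by a size factor of the tumor, and the log2 ratio is log2((bexarotene mean + 1)/(control mean + 1)). The pseudocount of 1 makes it understate the difference of genes with few reads. Of the 1784 genes, 772 (43.3%) were higher and 1012 (56.7%) were lower with bexarotene, and the median log2 ratio was -0.56. A log2 ratio above 1, a 2-fold difference, was seen in 289 genes (16.2%), and one below -1 in 501 genes (28.1%). After centring all log2 ratios on their median, 734 genes lay above 1 and 290 below -1, which moved the share of higher genes among those past 2-fold from 36.6% to 71.7%. These shares are the background for every count below.

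**Figure D1:**
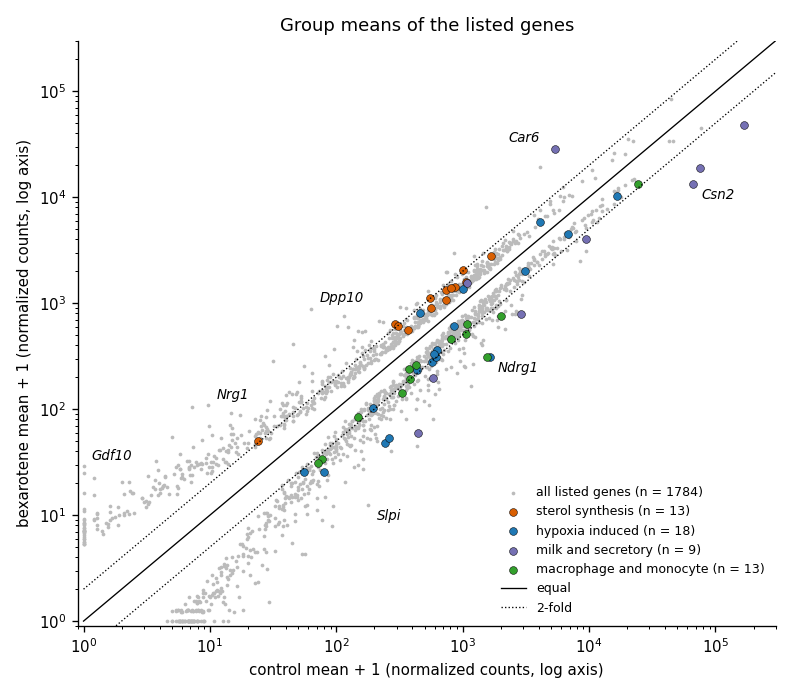
Mean normalized count + 1 of the control tumors (x axis, log scale) against that of the bexarotene tumors (y axis, log scale) for the 1784 listed genes, with 4 gene lists colored, a solid line at equal means and dotted lines at a 2-fold difference. The 13 sterol synthesis genes lie above the solid line and the 13 macrophage and monocyte genes below it, and few genes lie close to the line because only genes that the authors selected for a difference are listed.

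Upstream sequences of sterol and hypoxia genes were searched for the elements that SREBPs and hypoxia-inducible factors are known to bind, since both groups of genes are described below. Windows of 250 bases before to 50 bases after each transcript start were taken from RefSeq on GRCm38.p6, where 10 of the 15 listed sterol synthesis and uptake genes and 16 of the 18 lower hypoxia or glycolysis genes had one. The core of the hypoxia element, ACGTG, searched for on both strands, was found in 14 of these 16 genes (87.5%), against 21.8% of the 27025 genes with a window, 27.2% of the higher listed genes and 24.7% of the lower ones. The core of the sterol element, TCACCCCAC, also on both strands, was found in 1 of the 10 sterol genes, Hmgcs1, and in 0.614% of all genes. Some genes have several windows, and a match describes letters in the window and not a bound site. The 16 genes came from lists of hypoxia and glycolysis genes, so the 87.5% describes members of such lists and not an effect of bexarotene. The other members of these lists were not set beside it. The 250 bases before the start are given for Hmgcs1 and for 5 of the lower hypoxia or glycolysis genes, with the matched letters in capitals.
Hmgcs1 (chr13:119690101-119690350, plus strand): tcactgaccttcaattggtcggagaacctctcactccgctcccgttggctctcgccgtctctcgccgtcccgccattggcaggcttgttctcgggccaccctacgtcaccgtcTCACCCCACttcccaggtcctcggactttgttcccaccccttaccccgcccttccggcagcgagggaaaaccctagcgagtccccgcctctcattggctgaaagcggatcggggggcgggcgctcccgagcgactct
Slc16a3 (chr11:120948817-120949066, plus strand): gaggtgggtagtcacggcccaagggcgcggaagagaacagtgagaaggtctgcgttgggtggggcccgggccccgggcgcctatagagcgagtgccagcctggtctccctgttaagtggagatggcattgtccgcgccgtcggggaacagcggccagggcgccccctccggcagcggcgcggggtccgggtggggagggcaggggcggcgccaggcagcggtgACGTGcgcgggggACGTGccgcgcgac
P4ha2 (chr11:54100674-54100923, plus strand): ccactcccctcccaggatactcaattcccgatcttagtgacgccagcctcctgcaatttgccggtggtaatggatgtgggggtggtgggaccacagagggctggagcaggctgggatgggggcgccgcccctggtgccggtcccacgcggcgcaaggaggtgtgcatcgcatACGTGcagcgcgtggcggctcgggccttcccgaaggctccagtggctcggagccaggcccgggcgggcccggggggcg
Bnip3 (chr7:138909507-138909756, minus strand): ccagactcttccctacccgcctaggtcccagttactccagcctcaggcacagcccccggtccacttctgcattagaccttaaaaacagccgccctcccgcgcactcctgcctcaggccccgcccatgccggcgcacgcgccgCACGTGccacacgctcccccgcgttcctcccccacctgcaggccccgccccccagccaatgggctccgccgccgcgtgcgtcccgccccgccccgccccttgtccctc
Car9 (chr4:43506776-43507025, plus strand): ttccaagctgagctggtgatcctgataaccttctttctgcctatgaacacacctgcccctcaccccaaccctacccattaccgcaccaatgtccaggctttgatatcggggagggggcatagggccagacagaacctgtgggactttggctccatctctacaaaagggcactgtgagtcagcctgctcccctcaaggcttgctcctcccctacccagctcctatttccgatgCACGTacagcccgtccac
Pgk1 (chrX:106186850-106187099, plus strand): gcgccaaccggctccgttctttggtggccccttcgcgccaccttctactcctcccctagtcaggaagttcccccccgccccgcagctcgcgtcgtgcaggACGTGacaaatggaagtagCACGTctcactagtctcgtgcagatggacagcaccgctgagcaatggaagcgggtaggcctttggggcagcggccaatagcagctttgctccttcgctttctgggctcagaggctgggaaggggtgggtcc
The match in Hmgcs1 began 137 bases before the start. In Slc16a3 the element occurred 27 and 14 bases before the start, and in Bnip3 the letters CACGTG, which read the same on both strands, began 108 bases before it. The other 4 elements in the list were searched on both strands in the same windows. The AP-1 site TGANTCA occurred in 8.97% of all genes, 8.89% of the higher and 9.19% of the lower listed genes. The hormone response core AGGTCA, of which RXR pairs bind repeats, occurred in 18.1%, 19.1% and 21.2%. The kappa B core GGGANTTCC occurred in 1.92%, 2.04% and 2.92%, and the amino acid response core TGATGNAA in 4.51%, 2.78% and 3.34%. The kappa B core was found in 3 of 15 lower genes of NF-kB and TNF signaling, and so were the AP-1 site and the hypoxia core, each in 3 of the 15. The hypoxia core was also found in 3 of the 10 sterol genes and in 3 of 7 higher fatty acid genes.

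For bexarotene the authors deposited the mean of 4 tumors and no value of a single tumor, so the reads of each tumor were recovered from the means. A mean of normalized counts is a sum of whole reads, each worth a fixed step that differs between tumors, and below a mean of 100 only a single combination of reads usually gives the printed digits. Of the 661 bexarotene means under 100, of which 46 were 0, 638 were recovered, and 23 fitted several combinations and were left out. Run on the control means in the same way, this gave the deposited reads in all 4 tumors for 133 of 133 genes for which they were deposited. All 8 tumors were thus known for 564 genes, and control tumors 1 to 4 for 961 genes. The bexarotene tumors are called A to D in order of falling size factor, since no source ties them to the numbered samples. The control tumors had 15571690 to 22574865 reads on genes.

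Some tumors were the highest of their group more often than others. Among 216 genes that were higher with bexarotene and known in all 8 tumors, tumor C was the highest bexarotene tumor in 148, tumor A in 37, D in 20 and B in 11. Among 348 lower genes, control tumor 1 was the highest control in 151, control 2 in 94, control 4 in 78 and control 3 in 25. In the same lower genes tumor A was the highest bexarotene tumor in 161, D in 87, B in 59 and C in 41. The 4 bexarotene tumors lay above all 4 controls in 70 genes, 12.4% of the 564, and below all 4 in 143 genes, 25.4%. A higher gene cannot lie below all controls, nor a lower gene above them. The 70 were 32.4% of the 216 higher genes and the 143 were 41.1% of the 348 lower genes. These shares are the background for each gene said below to show no overlap. Without tumor C, 164 of the genes were higher past 2-fold against 201 with it, and without control 1, 300 were lower past 2-fold against 326. In 15 higher genes more than 80% of the group's normalized counts came from a single bexarotene tumor. These genes have low counts, and the pattern of the genes with means above 100 is not known.

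**Figure D2:**
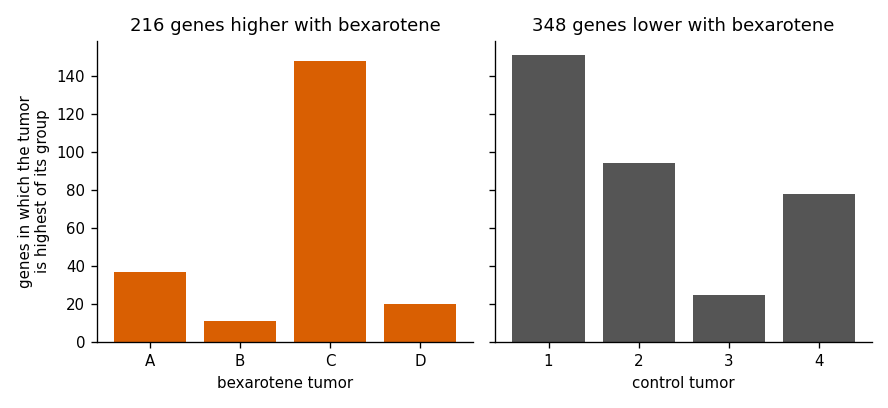
Number of genes (y axis) in which each tumor (x axis) had the highest normalized count of its group, for the 216 genes higher with bexarotene (left, bexarotene tumors A to D) and the 348 genes lower with bexarotene (right, control tumors 1 to 4). Tumor C was highest in 148 of the 216 genes and control tumor 1 in 151 of the 348.

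Of 20 genes of sterol synthesis, 13 were listed and all 13 were higher with bexarotene, against 43.3% of all listed genes. Their median log2 ratio was 0.78. The members ran along the whole path from acetoacetyl-CoA to cholesterol. Hmgcs1, which makes HMG-CoA, went from a control mean of 864 to 1428, a log2 ratio of 0.72. Isoprenoid steps followed with Idi1, at 293 and 639 (1.12), and with Fdps, at 23 and 48.6 (1.05). Squalene epoxidase (Sqle) had means of 1053 and 1566 (0.57), and lanosterol synthase (Lss) of 802 and 1381 (0.78). Among the later steps, Cyp51 had means of 554 and 1119.9 (1.01) and Msmo1 of 306 and 608 (0.99). Acat2, Dhcr7, Nsdhl and Sc5d had log2 ratios between 0.52 and 0.83.

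Insig1, which holds SREBP in the endoplasmic reticulum and is itself an SREBP target, had a control mean of 749.7 and a bexarotene mean of 1979 (log2 ratio 1.40). The 4 control tumors had 571, 514, 996 and 917 normalized counts, and the bexarotene mean was above each of them. Of a list of 15 genes for sterol uptake and feedback 2 were listed, both higher. For 12 of the 13 synthesis genes the control tumors were known from the V-125 table, and in all 12 the bexarotene mean lay above all 4 controls, against 44.3% of the 497 genes listed in both tables. All 12 are higher genes, and of the 225 higher genes among the 497 the mean lay above all controls in 97.8%, so that share is near the background.

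Fdps was the sterol gene with all 8 tumors known. Its controls had 12.6, 12.7, 41.4 and 25.3 normalized counts, and the bexarotene tumors A to D had 47.9, 38.8, 35.2 and 72.5. The groups overlapped, since control 3 lay above tumors B and C.

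**Figure D3:**
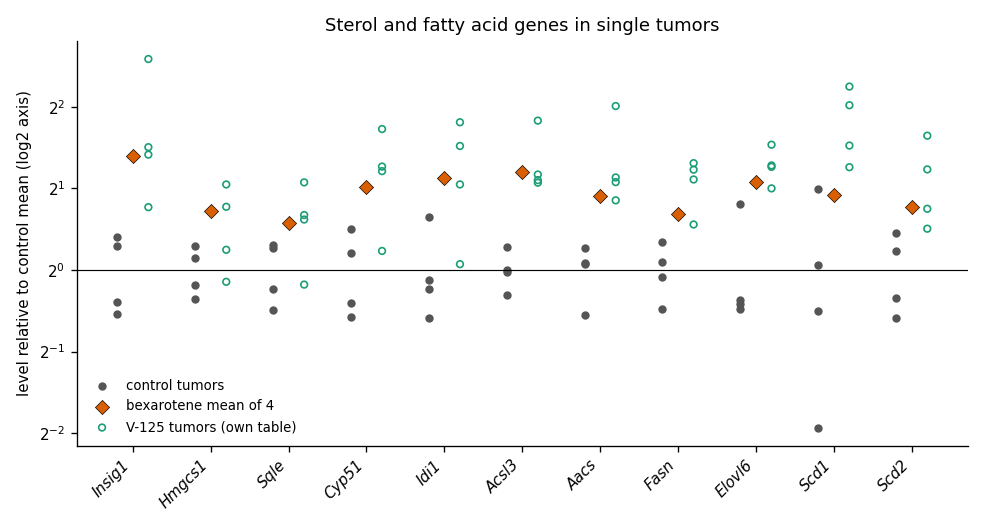
Levels of named sterol and fatty acid genes relative to the control mean of the same table (y axis, log2 scale), with 4 control tumors (grey points), the mean of 4 bexarotene tumors (orange diamonds) and 4 V-125 tumors (open circles, from their own table). The bexarotene mean lies above all 4 control tumors for Insig1 and Acsl3 and within their range for Scd1, where control tumor 1 was at 88759 normalized counts.

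The 3 listed genes of 16 for fatty acid synthesis and activation were all higher. Fatty acid synthase (Fasn) had means of 8773 and 14129 (log2 ratio 0.69), and its 4 controls had 11164, 6319, 8246 and 9365. Aacs, which makes acetoacetyl-CoA for lipid synthesis, had means of 672 and 1264 (0.91). Acsl3, which activates long-chain fatty acids, had the most even controls, at 428, 435, 352 and 527, and a bexarotene mean of 1004 (1.20).

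Desaturases and elongases had 7 of 16 genes listed, with 6 higher. The stearoyl-CoA desaturase Scd1, an LXR and SREBP target, had the largest gain in counts of all listed genes, from 44558 to 84410.4 (log2 ratio 0.92). Its controls differed widely, at 88759, 31329.6, 11669.5 and 46475, so the bexarotene mean lay within them, and the log2 ratio was 0.60 without control 3 and 1.501 without control 1. The elongase Elovl6 had controls of 539, 500.4, 523 and 1221 and a bexarotene mean of 1472 (1.08). Scd2 had means of 10501 and 17949 (0.77), and Scd3 of 176 and 271 (0.62). Fads3, a desaturase-like gene, was the lower member, at 279 and 129 (-1.11).

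Of 24 PPAR targets 6 were listed, 4 of them higher. Fabp4, the fatty acid-binding protein of adipocytes and endothelium, had means of 157 and 530.2 (log2 ratio 1.75). Cpt1a, which brings fatty acids into mitochondria, had means of 619 and 982 (0.66), and the peroxisomal enzyme Ehhadh of 518 and 772 (0.57). Plin4, a lipid droplet protein, had controls of 13.8, 8.05, 19.1 and 4.22 and bexarotene tumors at 153, 6.63, 42.5 and 7.69. Tumors A and C carried the Plin4 difference, and the log2 ratio of 2.12 became 0.70 without tumor A. Angptl4, an inhibitor of lipoprotein lipase that is both a PPAR and a hypoxia target, was lower, at 241 in controls and 46.4 with bexarotene (-2.35, and -3.23 without tumor A). Adipocyte genes were listed 2 times out of 18, as Fabp4 and the glycerol channel Aqp7, which had 0 reads in every control and 6.07 normalized counts in the bexarotene mean. The part of adipocytes in the PPAR counts was not tested.

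Of 17 LXR targets 3 were listed. Lpcat3, which loads polyunsaturated chains on phospholipids, had means of 1199 and 1643 (0.45), Scd1 is given above, and Apoe, the lipid carrier that macrophages also make, was lower at 24585 and 13435 (-0.87).

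Of 32 genes of retinoid metabolism and receptors 5 were listed, 4 of them lower. Aldh1a3, which makes retinoic acid, had controls of 223, 196, 39 and 194 normalized counts, and bexarotene tumors at 79.2, 10.4, 31.1 and 12.1 (log2 ratio -2.26, and -3.12 without tumor A). Control 3 was far below the other controls and lay below tumor A. Cyp26b1, which breaks retinoic acid down, had controls of 71.3, 81.7, 33.4 and 149, and bexarotene tumors at 35.9, 12.3, 20.7 and 13.2 (-1.98). The groups overlapped only at tumor A and control 3. The retinoic acid receptors Rarg, at 1301 and 782 (-0.73), and Rara, at 399 and 253 (-0.66), were lower, and the retinal reductase Rdh11, at 922 and 1463 (0.67), was higher. In the wider list of 46 nuclear receptors 7 were listed, 3 higher and 4 lower, which became 4 and 3 after centring on the median of all listed genes. The vitamin D receptor Vdr, at 3345 and 1788 (-0.90), and the thyroid hormone receptor Thra, at 765 and 522 (-0.55), were also lower. Nr4a2, at 94.1 and 184 (0.96), Esrrg, at 535 and 885 (0.72), and Nr2f2, at 149.7 and 246 (0.71), were higher.

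Genes induced by low oxygen had 18 of 47 members listed, and 15 of the 18 were lower, against 56.7% of all listed genes. Their median log2 ratio was -0.87. Ndrg1, a stress-response gene and a standard hypoxia marker, had the largest ratio, with controls of 2916, 1180.3, 948 and 1484 and a bexarotene mean of 311 (-2.39), below every control. The mitochondrial adenylate kinase Ak4 had controls of 343, 86.3, 184 and 431, and bexarotene tumors at 56.2, 83.4, 0 and 69.2 (-2.30). The groups did not overlap, and control 2 lay just above tumor B. P4ha2, a collagen prolyl hydroxylase, had controls of 102, 57.5, 26.3 and 132, and bexarotene tumors at 53.4, 9.47, 21.8 and 14.3 (-1.64, and -2.31 without tumor A), so tumor A lay above control 3.

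Other members showed smaller differences. Bnip3, a mitophagy receptor, had controls of 737, 353, 400.1 and 784 and a bexarotene mean of 280.2 (-1.02). Carbonic anhydrase 9 (Car9), a classical marker of hypoxic tumor cells, had means of 625 and 361 (-0.79). The glucose transporter Slc2a1 had means of 3125 and 2026 (-0.63), and the glycolytic enzymes Ldha and Pgk1 had log2 ratios of -0.70 and -0.61. The exceptions were Epas1, which encodes the hypoxia-inducible factor HIF-2alpha, at 999 and 1348 (0.43), Car12 (0.52) and Rgs2 (0.83). The bexarotene mean was below all 4 controls in 7 of 10 members listed in both tables, against 44.5% of the 497 genes. Of these 10 members 8 are lower genes, and of the 272 lower genes among the 497 the mean lay below all controls in 81.2%, so this share is near the background as well.

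Of 26 glycolysis genes 7 were listed and 6 were lower. The lactate exporter Slc16a3 had controls of 128, 56.4, 38.2 and 79.3, and bexarotene tumors at 15.7, 8.52, 0 and 7.69 (log2 ratio -3.09). Every bexarotene tumor lay below every control for Slc16a3. The muscle isoform Pgam2 was higher, at 10.9 and 40.1, with tumor A at 102, while 0 of 15 skeletal muscle genes were listed.

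Blood genes and part of the vessel genes were lower as well. The 4 listed hemoglobin genes of 7 erythrocyte markers were all lower, including Hba-a1, at 5196 and 2334 (-1.15), and Hbb-bs, at 2146 and 844 (-1.35). Hbb-bt had controls of 148, 133, 341 and 105, and bexarotene tumors at 75.5, 69.1, 52.8 and 60.4, with no overlap. The hemoglobin copies are near-identical, and reads may be split between them. Of 37 endothelial genes 5 were listed. Angpt2, a vessel-destabilizing ligand, had controls of 93.1, 114, 163 and 239, and bexarotene tumors at 50.7, 37.9, 47.7 and 64.8 (-1.58), again with no overlap. Apln was also lower and Rgcc and Epas1 higher. The part of blood content in the hypoxia counts was not tested. In bulk tumor, fewer cells of a type and less RNA per cell cannot be told apart.

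**Figure D4:**
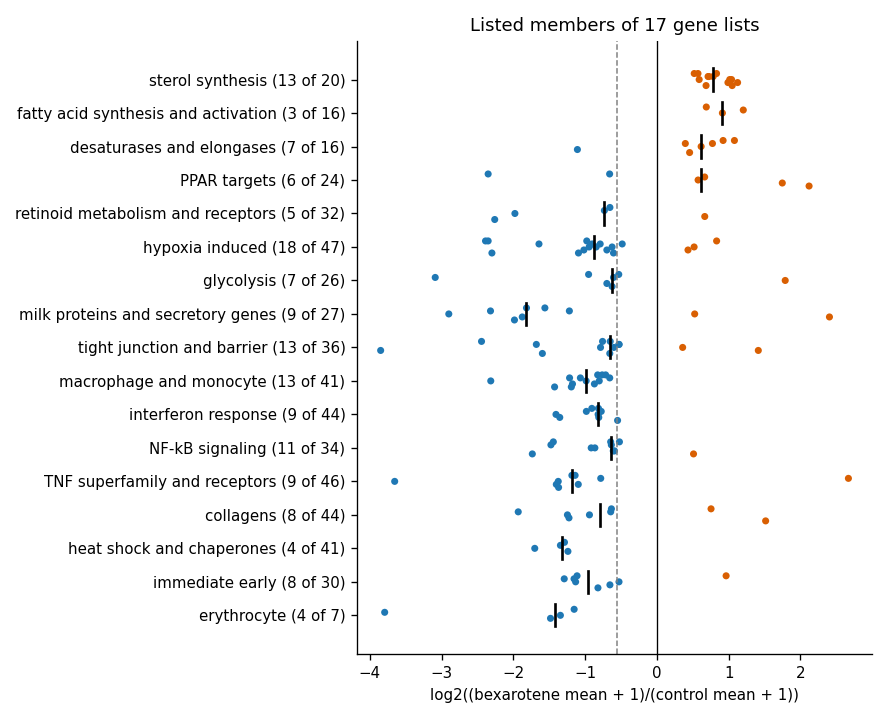
Log2 ratio of bexarotene over control (x axis) for each listed member of 17 gene lists (rows, with the number listed of the list size), orange for higher and blue for lower, with a black bar at each list's median and a dashed line at -0.56, the median of all listed genes. The 13 sterol synthesis genes all lie to the right of 0, and the 13 macrophage and monocyte genes and the 9 interferon genes all lie to the left.

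The tumors expressed the luminal keratins Krt18, at 19345 and 13149.9, and Krt8, at 16888 and 12215, at high levels in both groups, as mammary epithelium does. Of 18 epithelial keratins 5 were listed, with 1 higher and 4 lower, which became 3 and 2 after centring on the median of all listed genes. Of 27 milk protein and secretory genes 9 were listed, 7 of them lower, with a median log2 ratio of -1.82. The casein gene Csn1s2a had the largest loss of counts of all listed genes, at 167676 and 47540.2 (-1.82), and the casein gene Csn2 had means of 66296 and 13278 (-2.32). Mfge8, the milk fat globule protein, had controls of 150389, 59804, 37719.5 and 53698 and a bexarotene mean of 19032 (-1.99), below every control. Without control 1, which was the highest, the log2 ratio of Mfge8 was -1.41. Wap, a whey protein, had controls of 775, 780.0, 177 and 32.9, and bexarotene tumors at 55.3, 47.4, 26.9 and 103 (-2.90). Controls 1 and 2 carried the Wap difference, and control 4 lay below tumors A, B and D. Car6, a secreted carbonic anhydrase, was higher, with controls of 3289.6, 2907, 12169 and 3122 and a bexarotene mean of 28429 (2.40, and 3.19 without control 3). The prolactin receptor Prlr was higher too, at 1080.1 and 1555 (0.53).

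Of 36 tight junction and barrier genes 13 were listed, 11 of them lower. Grhl3, a transcription factor of epithelial barriers, had 35.6, 12.7, 11.1 and 10.1 normalized counts in controls and a single read, in tumor D, among the bexarotene tumors. The protease Prss22 had controls of 46, 143, 64.4 and 68.4, and bexarotene tumors at 23, 15.2, 0 and 17.6 (log2 ratio -2.44), with no overlap. Claudin 4 (Cldn4), a sealing protein of the tight junction, had even controls of 1890.3, 1738, 1691 and 2239 and a bexarotene mean of 589 (-1.68). Cldn7 and Cldn3 were lower too, at -0.79 and -0.76, whereas Cldn10 was higher, with means of 736 and 1961 (1.41) and controls from 309.7 to 1363. The epithelial keratin Krt80 had controls of 155, 173, 154 and 122, and bexarotene tumors at 102, 57.8, 54.9 and 62.6 (-1.11), with no overlap. The desmosome gene Pkp1 was lower (-1.46) and Dsg2 higher (0.60), these being the only 2 of 12 desmosome genes listed.

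Of 41 macrophage and monocyte genes 13 were listed and all 13 were lower, with a median log2 ratio of -0.99. Cd14, the lipopolysaccharide co-receptor, had means of 1548 and 310.1 (-2.32). The complement genes C1qa, at 2023 and 752 (-1.43), C1qc (-1.07) and C1qb (-0.76), made by tissue macrophages, were lower together. The receptor Csf1r, which macrophages need to survive, had means of 806 and 454 (-0.83), and the adaptor Tyrobp of 329 and 141 (-1.22). Summed over the 13 genes, the group means were 32912 normalized counts in controls and 17072 with bexarotene, and most of either sum was Apoe, which tumor cells can also express. Itgam, a myeloid integrin, had controls of 78.2, 88.6, 65.2 and 72.6, and bexarotene tumors at 54.3, 36, 12.4 and 29.7 (-1.18), with no overlap. Siglec1 had controls of 28.7, 97.8, 71.6 and 83.5, and bexarotene tumors at 47.9, 33.2, 13.5 and 26.4 (-1.19). Control 1 lay below tumors A and B for Siglec1, and tumor C was the lowest of the 8 for both genes.

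Lymphocyte genes were mostly not listed, and neither were most genes of the other lists, since 273 of the 1609 genes in all lists were listed. Of 28 T cell genes only Zap70 was listed, and of 15 NK and cytotoxic genes only Fasl, both with few reads. Fasl, the ligand of the death receptor Fas, had 3 reads in all controls together and 9.21, 1.89, 30 and 2.2 normalized counts in tumors A to D. Antigen presentation genes of class I (6 of 17 listed) and class II (4 of 12) were all lower. The immunoproteasome subunit Psmb10 had means of 931 and 367 (-1.34), Psmb8 of 1842 and 900.0 (-1.03) and Psmb9 of 1000.4 and 557 (-0.84). All 9 listed genes of 44 of the interferon response were lower, with a median of -0.82, such as Oas2, at 264 and 98.9 (-1.41), and Irf7, at 1431 and 813 (-0.82).

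Of 34 NF-kB pathway genes 11 were listed and 10 were lower. Bcl3, a nuclear co-regulator of NF-kB, had means of 322 and 95.9 (-1.74). The subunit Rel had controls of 58.6, 61, 39.8 and 54.9, and bexarotene tumors at 21.2, 12.3, 20.7 and 22 (-1.44), with no overlap. The adhesion molecule Icam1 had controls of 55.2, 106, 70.8 and 59.1, and bexarotene tumors at 57.1, 28.4, 2.07 and 14.3 (-1.48, and -2.21 without tumor A), so tumor A lay within the controls. The subunits Relb (-0.92) and Rela (-0.64) and the inhibitor Nfkbia (-0.61) were lower, and the kinase Irak1 was higher (0.51). In the TNF superfamily 8 of 9 listed genes, out of 46, were lower. The receptor Tnfrsf12a had even controls from 1164 to 1353 and a bexarotene mean of 481 (-1.38), and the ligand Tnfsf8 had controls of 26.4, 9.2, 7.16 and 15.2 and a single read, in tumor A, with bexarotene. The chemokines Cx3cl1, at 1009 and 378 (-1.41), and Cxcl16, at 542 and 239 (-1.18), were the only listed genes of 60. The part of the macrophage genes in the interferon, NF-kB and antigen presentation counts was not tested.

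Collagens had 8 of 44 genes listed, 6 of them lower. Col16a1 had controls of 3797, 2281, 1060.4 and 1571 and a bexarotene mean of 569 (-1.93), and Col6a3 had means of 1049 and 448 (-1.23), while the anchoring fibril gene Col7a1 was higher, at 134 and 384 (1.51). Among matrix glycoproteins 11 of 59 were listed, 8 of them lower. The hyaluronan link gene Hapln3 had controls of 126, 64.4, 35 and 50.6, and bexarotene tumors at 11.1, 12.3, 11.4 and 18.7 (-2.29), with no overlap. Comp, cartilage oligomeric matrix protein, was higher, with controls of 789, 7235, 4482 and 3732 and a bexarotene mean of 19204 (2.24). Spock1, a proteoglycan, had controls of 1.15, 5.75, 4.77 and 5.91, and bexarotene tumors at 23, 18, 30 and 39.6 (2.41), with no overlap and all 4 tumors contributing. Fibulin 1 (Fbln1) had controls of 17.2, 3.45, 27.8 and 5.91, and bexarotene tumors at 267, 18.9, 62.2 and 12.1 (2.64). Tumor A carried most of the Fbln1 difference, which became 1.13 without it, and Pdgfrb, the other listed gene of 22 fibroblast markers, was lower (-0.74).

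Of 18 ERBB ligands and receptors 2 were listed and both were higher. Nrg1 (chr8:31814551-32884029, minus strand, GRCm38), the ligand of ERBB3 and ERBB4, had controls of 19.5, 1.15, 7.16 and 6.75 and a bexarotene mean of 108 (log2 ratio 3.50, and 4.18 without control 1). Egf, the ligand of EGFR, had controls of 754, 576, 1283 and 829 and a bexarotene mean of 1884 (1.13). The ERBB2 receptor gene itself was not listed. Nfasc, a cell adhesion gene, had means of 159 and 387 (1.28), and Lrrc26, a potassium channel subunit, of 599.9 and 1149.7 (0.94).

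Among 67 growth factor and receptor kinase genes 16 were listed, 12 of them lower. The placental growth factor Pgf had controls of 195, 128, 103 and 219, and bexarotene tumors at 77.4, 29.4, 79.8 and 30.8 (-1.55), with no overlap. The lymphatic growth factor Vegfd was higher only through tumors A and C, with controls of 0, 8.05, 0 and 3.38 and bexarotene tumors at 38.7, 4.74, 57 and 1.1 (2.77, and 2.04 without tumor C or 3.63 without control 2). Of 56 Wnt genes 7 were listed and 6 were lower. Wnt7b had controls of 143, 119.6, 46.1 and 60.8, and bexarotene tumors at 12.9, 5.68, 19.7 and 6.59 (-2.93), with no overlap, and Wnt5b (-1.81) and the receptor Lgr6 (-1.73) were lower as well. Among 57 TGF-beta and BMP genes 4 were listed. Inhba, the activin A subunit, had controls of 56.3, 41.4, 22.3 and 74.3, and bexarotene tumors at 22.1, 12.3, 10.4 and 6.59 (-1.84), with no overlap by a narrow margin at control 3. Gdf10, a BMP-like factor, had 0 reads in every control and 56.2, 0, 54.9 and 0 normalized counts in tumors A to D.

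**Figure D5:**
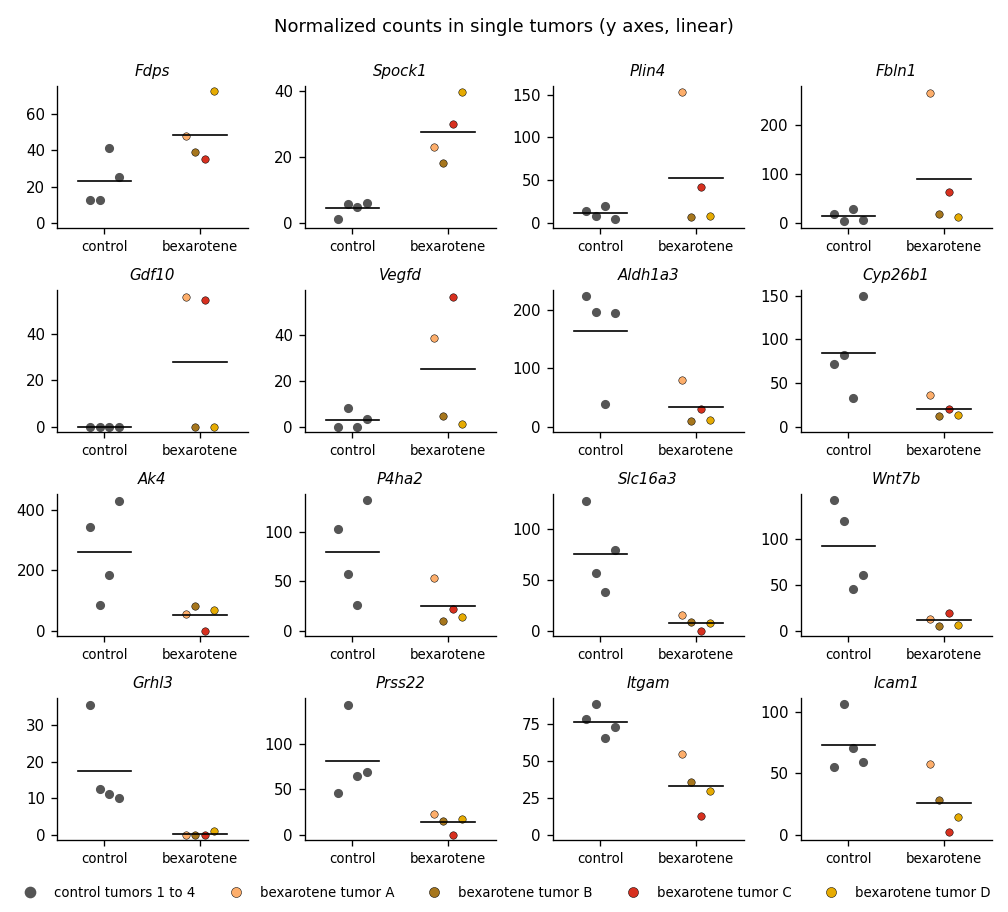
Normalized counts (y axes, linear, 1 panel per gene) of 16 genes in the 4 control tumors (grey) and the 4 bexarotene tumors A to D (colored), with a bar at each group mean. Slc16a3, Wnt7b, Prss22, Itgam and Spock1 show groups that do not overlap, whereas Plin4 and Fbln1 are highest in tumor A and Gdf10 and Vegfd are high only in tumors A and C.

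Of 41 heat shock genes 4 were listed and all were lower, among them Hspb1, with controls of 3963, 2759.9, 1736 and 1928 and a bexarotene mean of 797 (-1.70). Hspa1a and Hspa1b, near-identical copies between which reads may be split, had log2 ratios of -1.29 and -1.35. In the amino acid and integrated stress response 7 of 9 listed genes, out of 43, were lower, including Nupr1 (-1.06) and Cebpb (-0.93). Gdf15, a stress cytokine, had controls of 39.1, 27.6, 15.1 and 21.1, and bexarotene tumors at 2.76, 1.89, 14.5 and 2.2 (-2.08, and -3.02 without tumor C), with tumor C just below control 3. Hmox1, which degrades heme, had means of 2617 and 837 (-1.64), and Nqo1 of 356 and 127 (-1.48). The immediate early genes Junb, at 1709.8 and 698 (-1.29), and Fos, at 369.8 and 170.3 (-1.11), were among 7 lower of 8 listed, out of 30. Of 35 apoptosis genes 7 were listed and all were lower, both promoters of death such as Bmf (-1.28) and Bax (-0.79) and the protector Bcl2l1 (-0.89). Of 56 cell cycle genes 3 were listed. The proliferation marker Mki67 had means of 3924 and 6185 (0.66), Rrm2 of 823 and 1190.2 (0.53) and the inhibitor Cdkn1a of 218 and 136 (-0.67).

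Among genes with at least 50 normalized counts in a group mean, Slpi, a secreted protease inhibitor, had the largest decrease, from 178 to 11.5, with tumors A to D at 34.1, 0.947, 0 and 11 (log2 ratio -3.84, and -5.17 without tumor A). Zbtb16, a transcription factor induced by glucocorticoids, had controls of 184, 137, 29.4 and 18.6, and bexarotene tumors at 6.45, 3.79, 6.22 and 11 (-3.57). Tmem229a had controls of 129.9, 38, 16.7 and 35.4, and bexarotene tumors at 6.45, 5.68, 0 and 1.1 (-3.70, and -2.85 without control 1). Neither gene overlapped between groups. The growth-associated gene Basp1 had controls of 2099.6, 1359.8, 463 and 721 and a bexarotene mean of 163 (-2.83). Sftpd, a lung and epithelial collectin, had means of 434 and 44 (-3.27), and Cytip, a lymphocyte adhesion regulator, of 578 and 80 (-2.84).

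Among the genes with at least 50 normalized counts in a group mean, the largest increases were the gene model A830018L16Rik, at 6.28 and 103 (3.84), and Dpp10 (chr1:123321471-124045559, minus strand, GRCm38), a potassium channel-associated protein, with controls of 27.6, 151, 24.7 and 45.6 and a bexarotene mean of 880.3 (3.80, and 4.71 without control 2). The GABA receptor subunit Gabra4 had controls of 57.5, 21.9, 68.4 and 30.4 and a bexarotene mean of 411 (3.18). Eya1, a developmental co-activator, had means of 101 and 614 (2.59). Colca2 had controls of 0, 4.6, 17.5 and 8.44, and bexarotene tumors at 13.8, 50.2, 88.1 and 48.4 (2.57, and 3.26 without control 3), with tumor A below control 3. Gm21718 had controls of 1.15, 0, 7.16 and 7.6, and bexarotene tumors at 1.84, 16.1, 177 and 17.6 (3.44), which became 1.37 without tumor C. Several of the largest increases were copies or gene models, such as Rps26-ps1, Znf41-ps, Gm12872 and Gm16120, whose reads may be shared with related sequences.

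By family, 32 of 38 listed Zfp zinc finger genes were higher, with a median log2 ratio of 0.76, and 0 of 6 Gpr receptor genes and 0 of 7 ribosomal protein genes were higher, with medians of -1.29 and -0.57. Centring on the median of all listed genes leaves the 7 ribosomal protein genes around that median. The higher and lower genes differed in length and base composition. Among the protein-coding listed genes, the longest annotated transcript had a median of 3979.5 bases in higher genes and 2699.5 in lower ones, with 2882 over all protein-coding genes of GENCODE M21. The median GC content of these transcripts was 45.6% in higher genes, 54.4% in lower genes and 48.7% over all, and the median gene span was 40.2, 14.8 and 17.4 kb. The part of RNA quality or library preparation in these differences was not tested.

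Of the 1784 genes 497 were also listed for V-125 against control, which is 27.9% of the bexarotene list and 31.3% of the V-125 list. The control tumors are common to the V-125 and bexarotene tables. Over these 497 genes the bexarotene mean lay above all 4 controls in 220 (44.3%) and below all 4 in 221 (44.5%), which is 97.8% of the higher and 81.2% of the lower genes. The tables were normalized separately, so values are set side by side with no test. Insig1 had 1287, 2142, 2011 and 4531 normalized counts in the V-125 tumors, beside a bexarotene mean of 1979. Car6 had 38599, 32786, 37209.9 and 40669 in the V-125 tumors, beside 28429, and Comp had 8382, 21239, 33186 and 21612, beside 19204. Nrg1 had 197, 63.6, 103 and 321 with V-125, beside a bexarotene mean of 108. For Dpp10 the V-125 tumors had 1015, 541, 447 and 81.4, beside 880.3.

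In 11 of the 497 genes the 2 drugs differed from control in opposite directions. Of these, 9 were lower with bexarotene and higher with V-125, among them the immune cell genes Cd300a, Mpeg1, Btk, Slc11a1, Il10ra and Sla. Cd300a, an inhibitory receptor, had controls of 113, 119.6, 63.6 and 83.5, bexarotene tumors at 43.3, 37.9, 48.7 and 25.3, and V-125 tumors at 369, 183, 127 and 63.4. Btk, a kinase of B and myeloid cells, had controls of 39.1, 46, 22.3 and 18.6, bexarotene tumors at 11.1, 10.4, 6.22 and 17.6, and V-125 tumors at 191, 35.1, 44.7 and 24.3. For both genes all 4 bexarotene tumors lay below all 4 controls, and V-125 tumor 1 was the highest of its group. V-125 tumor 4 lay just below the lowest control for Cd300a. For Btk, V-125 tumors 2 to 4 lay within the controls, so tumor 1 carried the V-125 difference. Mpeg1, a macrophage pore-forming protein, had controls from 753 to 1489, a bexarotene mean of 649 and V-125 tumors at 3515, 1898, 1452 and 998. Slc11a1, a phagosome metal transporter, had a bexarotene mean of 124 with controls from 143 to 319.8 and V-125 tumors at 839, 338, 332 and 318. Il10ra, the interleukin 10 receptor, had controls of 177, 137, 91.5 and 85.2, bexarotene tumors at 56.2, 28.4, 125.3 and 46.2 (log2 ratio -0.93, and -1.47 without tumor C), and V-125 tumors at 713, 173, 149.9 and 108. The groups of Il10ra overlapped, with bexarotene tumor C above controls 3 and 4 and V-125 tumors 2 to 4 within the controls. Stra6l had the same directions with few reads, 31 over the 4 controls and 3 with bexarotene, all in tumor D. V-125 tumor 1, at 93 normalized counts, carried most of the V-125 difference of Stra6l. For this gene V-125 tumor 2 lay above all controls, tumor 3 within them and tumor 4 below every control.

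Il20rb, a receptor subunit for interleukins 20 and 24, was higher with bexarotene and lower with V-125. Its controls had 1676, 2109.9, 4208 and 1929, the bexarotene mean was 4767 (log2 ratio 0.94) and the V-125 tumors had 911, 1148, 1659 and 1795. Gm35696 had controls of 56.3, 388, 99.4 and 44.7, a bexarotene mean of 548 (1.89, and 3.02 without control 2) and V-125 tumors at 35.8, 51.3, 33.8 and 80.4. Whether the drugs differ in any of these genes was not tested.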

How the data were processed

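RNA of 12 tumors was measured, of which the 4 bexarotene and 4 control tumors are described here, and groups and replicate numbers came from the labels. Per the labels, the authors used STAR 2.6.1d, featureCounts 1.5.0-p3 and limma, and the genome build is not given in the sources used here. The deposited bexarotene table holds group means of normalized counts, a signal that the authors obtained by dividing each read count by a size factor. The deposited V-125 table holds raw read counts, normalized counts and FPKM per tumor, and its control tumors are the same 4. Both tables also hold the authors' log2 fold changes, p-values and −log10 of adjusted p-values, and the bexarotene table a score named log2FC. These were deposited for the authors' own comparison and were not used, except that the p-value gave the listing limit of 0.05. FPKM deposited by the authors was not used. Spreadsheet software had turned 2 gene names into dates.

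Log2 ratios were computed from the group means with a pseudocount of 1 in Python 3.11.15 (numpy 2.4.6, pandas 2.3.3). Reads per tumor were recovered from means under 100 by listing all combinations of whole reads that give the deposited digits, a step chosen after seeing the data and tested on simulated data. Control values per tumor are deposited reads divided by the size factors of the bexarotene table, or recovered reads. Control and V-125 tumors in the V-125 table keep the scale of that table. Genes were taken from 56 lists and by rule: the 12 largest ratios in each direction with at least 50 normalized counts, the 6 largest differences, up to 8 genes per list and 3 per family and direction. Nfasc and Lrrc26 were added because the study names them. The members and lists were chosen with earlier results of these data known. Because group means alone were deposited and all genes had been selected on this contrast, no test was run. Some listed genes are not reported here. Reads per tumor carry counting error, which is largest for genes with few reads.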

Additional observations from a re-analysis of the deposited data

Results flagged for a closer look

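For 67 genes with values given per tumor, each known group of 4 tumors was examined for a tumor far from the other 3, by Dixon's criterion. Of 107 such groups 16 had one, and for normally distributed values chance alone flags about 1 in 20. A group in which a single tumor has reads is always flagged, as were the controls of Arhgap20. The share of 1 in 20 is therefore no fair background for genes with few reads. Among the controls, the stray tumor was at 1221 normalized counts for Elovl6 (control 4), 39 for Aldh1a3 (control 3), 12169 for Car6 (control 3), 35.6 for Grhl3 (control 1), 151 for Dpp10 (control 2), 0.844 for Arhgap20 (control 4), 388 for Gm35696 (control 2) and 106 for Gm12872 (control 3). Arhgap20, a GTPase-activating protein, had a single read over the controls, against 13.8, 1.89, 34.2 and 7.69 normalized counts in bexarotene tumors A to D.

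Among the bexarotene tumors, the stray tumor was at 1.1 for Grhl3 (tumor D), 102 for Krt80 (tumor A), 12.3 for Rel (tumor B), 0.921 for Tnfsf8 (tumor A), 18.7 for Hapln3 (tumor D), 14.5 for Gdf15 (tumor C), 3.3 for Stra6l (tumor D) and 177 for Gm21718 (tumor C). For Grhl3, Tnfsf8 and Stra6l the other 3 tumors had 0 reads.

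For 2 genes every bexarotene tumor lay below the control mean and every V-125 tumor above the control mean of its own table, and the difference between the drugs was not tested. Kcnj10, a potassium channel, had a log2 ratio of -1.09 with bexarotene, with tumors at 34.1, 31.3, 26.9 and 39.6 and V-125 tumors at 202, 128, 115 and 73. Its controls had 96.6, 88.6, 44.5 and 55.7, so V-125 tumor 4 lay within them. Sla, a Src-like adaptor of immune cells, had a log2 ratio of -1.08, with bexarotene tumors at 49.7, 25.6, 14.5 and 17.6 and V-125 tumors at 190.1, 107, 66.5 and 66.6. The Sla controls had 42.5, 67.9, 52.5 and 68.4. V-125 tumors 3 and 4 lay within these controls, and bexarotene tumor A lay above control 1.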

How the results depend on the processing

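The 289 genes higher and 501 lower past 2-fold became 185 and 309 with a pseudocount of 10, 63 and 174 among the 1169 genes with a mean of both groups of at least 100, 734 and 290 after centring on the median of all listed genes, and 119 and 195 at a log2 ratio of 2. The cause of the drop under the filter was not tested. A pseudocount of 0.1 and a filter at 10 left both counts within 1.5 times. The count of genes higher by any amount, 772, stayed within 1.5 times in all 5 alternatives. A pseudocount cannot change the sign of a ratio, and centring on the median sets the share at 50%. The filters at 10 and 100 were thus the informative alternatives, and they left 700 and 516 higher genes. Leaving out each control tumor gave 220 to 224 genes above all controls and 225 to 247 below all controls. Leaving out each of the 8 tumors in turn gave 79 to 105 and 157 to 204 genes with groups that do not overlap, against 70 and 143. With a tumor left out, counts of genes above or below all controls and of groups without overlap cannot fall. Leaving out each of the 8 tumors also gave 164 to 203 genes higher and 300 to 329 lower past 2-fold among the 564 known in all tumors. Of the 2091 log2 ratios recomputed for 347 named genes 0 changed sign. In all, 137 were counted as moved, by at least the spread between control tumors or, without it, the counting error. Genes with 0 reads in every control have a spread of 0 and always counted as moved, so part of the 137 did not move. Gdf10 counted as moved on leaving out each control, though its log2 ratio stayed at 4.85. The 2091 include pseudocounts of 0.1 and 10 for every named gene, which cannot change a sign. The genes had also been selected for differing on this contrast, many of them for large ratios, so the absence of sign changes says little. By the same count, leaving out bexarotene tumor A moved 26 of the recomputed ratios, tumor C 21, D 14 and B 10. Of 220 list counts 25 moved by over 1.5 times, and after centring the majority of 3 lists changed side, which were the epithelial keratins, the nuclear receptors and the mast cell and eosinophil list with its single listed gene. No paired analysis was possible because the recovered bexarotene tumors carry no replicate numbers and no test was run. Genes with bexarotene means above 100 have no values per tumor, so the spread within the group is unknown for them.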

Other observations

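Kcnip4, a potassium channel-interacting protein, had controls of 0, 6.9, 10.3 and 11.8 normalized counts and bexarotene tumors at 23.9, 15.2, 50.8 and 26.4 (log2 ratio 1.86), and the neuronal chloride transporter Slc12a5 had controls of 0, 10.4, 7.95 and 11.8 and bexarotene tumors at 8.29, 33.2, 47.7 and 16.5 (1.68). The groups did not overlap for Kcnip4 and overlapped for Slc12a5, where tumor A lay below controls 2 and 4, and tumor C was the highest of both. The clustered protocadherins Pcdhga9, Pcdhga12 and Pcdhga2, which share their last exons, had control means of 21.6, 12.9 and 12.6 and bexarotene means of 1.29, 1.47 and 1.61, while Pcdhb18 was higher, with controls of 23, 23, 27 and 32.1 and bexarotene tumors at 57.1, 59.7, 89.1 and 27.5.

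Clock genes and high-abundance genes also differed. The repressor Bhlhe41 had means of 538 and 108 (-2.31) and Per1 of 2696 and 1625 (-0.73), and with Bhlhe40 these were the 3 listed genes of 19 clock genes, all lower. The times of day of harvest are not given in the sources used here. Etnk1, an ethanolamine kinase, had controls of 10851, 19849.5, 26582 and 23572 and a bexarotene mean of 35161 (0.80). Ly6e, at 76194 and 44457 (-0.78), and the ferritin heavy chain Fth1, at 24936 and 12714 (-0.97), followed the milk genes in the size of their loss of counts.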
